A study of Homo sapiens with 66 samples.

Results

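Abundant noncoding RNAs made by RNA polymerase III (Pol III) were examined in human DLD-1 colorectal cancer cells after auxin-induced loss of proteins of the nuclear pore and of RNA export. They were RMRP, RPPH1, RN7SL1, RN7SL2 and RN7SK, 5 of the 58051 genes counted, taken by symbol from the Ensembl gene identifiers of the count files. Only the libraries with counts on RMRP were compared, which were 33 of 66 libraries in 11 groups of 3 replicates from 5 lines. Left out were the AID-NeonGreen-TPR libraries labelled old (untreated, or auxin for 2 h or 8 h), those with actinomycin D, and all NUP153 and NUP50 libraries. The untagged line, labelled original, was compared with auxin for 2 h and without auxin. The 4 tagged lines were AID-NeonGreen-TPR and AID-FLAG-NXF1 (auxin for 2 h), AID-HA-GANP1 (3 h) and GAP1-NeonGreen-AID (2 h and 8 h), called AID-TPR, AID-NXF1, AID-GANP and GAP1-AID below, each with its own untreated libraries. In the tagged lines the endogenous protein carries an auxin-inducible degron, a tag that lets the TIR1 ligase mark the protein for destruction once auxin (1 mM) is added. TIR1 was expressed from the RCC1 locus in tagged lines and is not stated for the untagged line, so DLD-1 shows auxin without a tagged target. TPR is a nucleoporin of the nuclear basket, NXF1 the main mRNA export receptor, GANP (gene MCM3AP) the scaffold of the TREX-2 export complex, and GAP1 (gene RANGAP1) the GTPase activating protein of Ran.

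Pol III transcribes short, structured RNAs that are neither capped like mRNA nor polyadenylated, and it stops at runs of T in the coding strand. RMRP is the RNA of RNase MRP, which acts in rRNA maturation, and RPPH1 is the RNA of RNase P, which trims the 5′ ends of tRNA precursors. RN7SL1 and RN7SL2 encode 7SL, the RNA scaffold of the signal recognition particle (SRP), which brings ribosomes that make secreted proteins to the endoplasmic reticulum. RN7SK encodes 7SK, which with LARP7, MEPCE and HEXIM proteins holds the elongation kinase P-TEFb inactive. RMRP, RPPH1 and RN7SK have promoters that lie upstream of the gene and contain a TATA box, whereas 7SL genes combine elements inside the gene with an upstream part.

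The difference in promoter type can be read in the genome around each 5′ end (GRCh38, GENCODE 44 coordinates). The genes are RMRP at chr9:35657754-35658017 on the minus strand, 264 bases, RPPH1 at chr14:20343075-20343407 on the minus strand, 333 bases, and RN7SK at chr6:52995621-52995948 on the plus strand, 328 bases. RN7SL1 lies at chr14:49586580-49586878 on the plus strand, 299 bases, and RN7SL2 at chr14:49862550-49862849 on the minus strand, 300 bases. Shown are the 80 bases before the start and the first 20 of the RNA, 5′ to 3′, with the letters TATA or TGACGT upstream of the start in capitals, to which an 8-letter TGACGTCA adds the reverse reading:
RMRP (chr9:35657998-35658097, minus strand): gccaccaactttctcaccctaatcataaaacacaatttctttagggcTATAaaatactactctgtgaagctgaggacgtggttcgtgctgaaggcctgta
RPPH1 (chr14:20343388-20343487, minus strand): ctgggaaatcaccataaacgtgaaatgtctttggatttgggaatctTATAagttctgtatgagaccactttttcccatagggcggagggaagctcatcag
RN7SL1 (chr14:49586500-49586599, plus strand): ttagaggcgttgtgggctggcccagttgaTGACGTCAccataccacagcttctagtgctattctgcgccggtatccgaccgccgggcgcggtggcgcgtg
RN7SL2 (chr14:49862830-49862929, minus strand): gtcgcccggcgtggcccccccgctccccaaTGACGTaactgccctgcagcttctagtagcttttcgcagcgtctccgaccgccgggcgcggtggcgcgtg
RN7SK (chr6:52995541-52995640, plus strand): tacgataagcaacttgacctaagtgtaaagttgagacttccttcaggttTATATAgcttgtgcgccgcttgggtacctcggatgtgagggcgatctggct

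TATA stood 33 bases before the start of RMRP, 34 before RPPH1 and 31 before RN7SK, and in none of the 250 bases before either 7SL gene. Of 35116 RefSeq promoters (GRCh38), 27.1% held TATA on either strand in the 250 bases before the start, and 4.65% held it between 36 and 25 bases before the start, where these 3 genes have it. TGACGT began 51 bases before RN7SL1 and 50 bases before RN7SL2. It also occurred in RPPH1 at 221 bases before the start, and 7.1% of RefSeq promoters held it on either strand. The octamer ATTTGCAT occurred 217 bases before RMRP and 101 bases before RPPH1, and in 1.63% of RefSeq promoters on either strand. These are matches of letters and not shown to be bound. At the other end, all 5 genes ran into a stretch of 4 to 6 T, the Pol III stop. For the 3 genes with an upstream TATA, the last 20 bases of the RNA and the 12 bases after it are shown with that run in capitals:
RMRP (chr9:35657742-35657773, minus strand): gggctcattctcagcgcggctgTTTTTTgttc
RPPH1 (chr14:20343063-20343094, minus strand): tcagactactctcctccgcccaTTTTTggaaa
RN7SK (chr6:52995929-52995960, plus strand): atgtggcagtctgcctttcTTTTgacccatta

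RN7SL1 and RN7SL2 share most of their sequence, so the separation of their counts rests on few bases. The 2 RNAs were equal at 98.3% of aligned positions, with 4 substitutions and 1 gap position, and the longest stretch equal in both was 205 bases. Reads from the stretch shared by both genes could be placed on either, and how such reads were counted is not given in the sources used here, so the level of each 7SL gene is uncertain on its own. Another copy, RN7SL3, had group means of 97.3 to 404 CPM (the count on a gene scaled to a common library total), far under the RN7SL1 and RN7SL2 levels.

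The files listed 4 of the 5 RNAs under 2 identifiers. A second row held the same count as RN7SL1 and as RN7SK in 33 of 33 libraries, and the same as RMRP in 30 of 33 with a largest difference of 1 count. For RPPH1 the second row was a longer lncRNA on the same strand (ENSG00000259001, chr14:20343048-20343685) whose count differed by at most 0.0453%. Only RN7SL2 had no such row, although exons of a lncRNA (ENSG00000282885, under 0.633 CPM) cover all its 300 bases in GENCODE 44. In the 33 libraries left out, RMRP, RPPH1, RN7SL1 and RN7SK were at 0 counts in every library, whereas RN7SL2 had 217492 to 771047 counts. Those zeros were not read as loss of the RNAs. RN7SL1 lies antisense in the gene body of RPS29 without covering any of its exons.

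Library totals ranged from 26858492 to 47492200 counts, with a median of 34149181. The epithelial markers EPCAM, KRT8, KRT18, KRT19, CDH1, CDX2, KRT20 and VIL1 were detected in all 33 libraries, while CDX1 and CEACAM5 were at 0 in some and LGALS4 stayed under 0.627 CPM. CLDN3 was between 1.98 and 5.14 CPM. All 8 markers of blood, endothelial and mesenchymal cells stayed under 1.80 CPM in all 33 libraries. GAP1-AID libraries held 56663 to 91601 mitochondrial counts and the other 4 lines 0, so counting differed for these genes and comparisons were made within a line. The tagged genes are not a check, since the degron removes protein and not RNA, and their transcripts did not fall in their own lines (log2 changes of 0.17 for TPR, 0.15 for NXF1, 0.26 for MCM3AP, and −0.04 and 0.13 for RANGAP1 at 2 h and 8 h). CYP1A1, a detoxifying enzyme induced by aryl hydrocarbon receptor ligands, served as a check of auxin. It was higher with auxin in all 4 tagged lines, by 1.88 to 6.28 on the log2 scale, but in DLD-1 the mean was 12.7 ± 2.70 CPM (SD, n = 3) under the auxin label and 184 ± 15.5 CPM under the untreated label. The DLD-1 groups are therefore named by their labels, and every direction given for them would turn if the labels were exchanged.

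The 5 RNAs together took 2.58% to 5.90% of all counts of a library, with a median of 3.86%. With the second rows left out of the ranking, each was among the 12 most counted of 58047 rows in every library. RN7SK ranked between 1 and 5, RN7SL1 between 1 and 8, RMRP between 2 and 6, RN7SL2 between 2 and 7, and RPPH1 between 4 and 12. The smallest count of any member in any library was 81394, for which counting error alone is 0.351%, so the spread between replicates and not depth set the precision. Per length of RNA the order differed little, with median FPKM (CPM divided by the length of the RNA in kilobases) of 30120 for RN7SL1, 28371 for RN7SK, 27551 for RN7SL2, 26537 for RMRP and 17464 for RPPH1. Such a share also moves when other RNAs change, and in bulk samples fewer cells with an RNA and less of it per cell cannot be told apart.

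**Figure D1:**
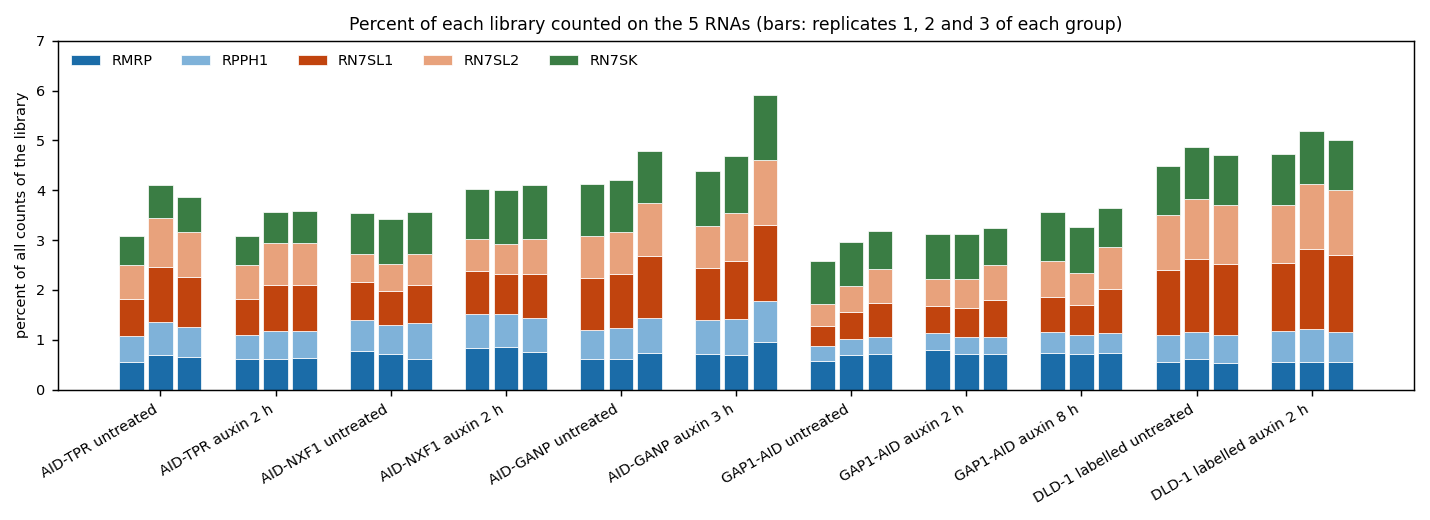
Percent of all counts of each of the 33 libraries that fell on RMRP, RPPH1, RN7SL1, RN7SL2 and RN7SK, stacked, with 3 bars per group for replicates 1 to 3. The sum ran from 2.58% to 5.90%, and the tallest bar is AID-GANP auxin replicate 3.

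Among the lines, DLD-1 had the highest group means of both 7SL genes. RN7SL1 was at 13143, 14647 and 14189 CPM in the 3 DLD-1 libraries labelled untreated, and at 4161, 5349 and 6939 CPM in untreated GAP1-AID. In the order of the 11 group means, all 10 neighbouring pairs overlapped for RN7SL1 and for RN7SL2, so the order is known only between distant groups. RPPH1 was lowest in GAP1-AID, at 2885, 3106 and 3333 CPM untreated, below every library of the other 4 lines, which ranged from 4905 to 8373 CPM. RN7SK was lowest in AID-TPR, at 5911 to 6978 CPM over its 6 libraries, below all 27 others. RMRP varied least, from 5240 to 9451 CPM, a 1.80-fold range, against 3.85-fold for RN7SL1, 2.96-fold for RN7SL2, 2.90-fold for RPPH1 and 2.19-fold for RN7SK. Neighbouring groups overlapped in 9 of 10 pairs for RMRP, 6 of 10 for RPPH1 and 7 of 10 for RN7SK. Line, batch and counting cannot be told apart in these level differences.

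**Figure D2:**
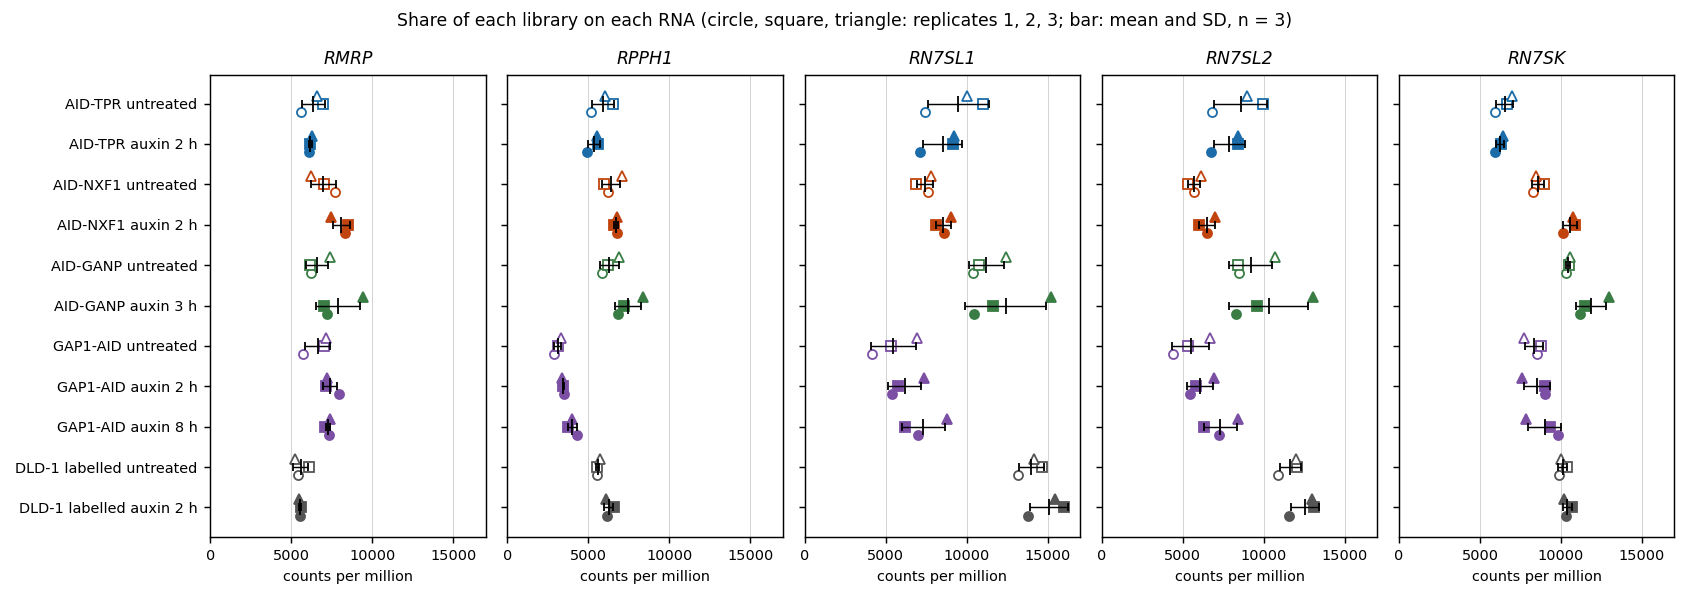
CPM of each RNA in each library (x axes) for the 11 groups (y axis), with filled symbols for auxin, open symbols for untreated, and a bar for the mean and SD of 3 replicates. RPPH1 is lowest in GAP1-AID, RN7SK in AID-TPR, and both 7SL genes are highest in DLD-1.

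Ratios within a library do not depend on its total. The ratio of RN7SL1 to RN7SL2, given as a description, differed between lines. It was 1.304 ± 0.0341 (SD, n = 3) in untreated AID-NXF1 and 1.324 ± 0.0291 with auxin, 1.23 ± 0.0607 and 1.21 ± 0.0471 in AID-GANP, and 1.203 ± 0.0161 and 1.202 ± 0.0185 in DLD-1. In AID-TPR it was 1.11 ± 0.0132 untreated and 1.08 ± 0.0218 with auxin, and in GAP1-AID 0.993 ± 0.0477 untreated, 1.02 ± 0.0364 at 2 h and 0.998 ± 0.0441 at 8 h. The 2 ranges of AID-TPR and AID-NXF1 did not overlap in any condition, whereas those with and without auxin overlapped in all 5 lines. RMRP over RPPH1, the 2 RNAs of related ribozymes, was 2.13 ± 0.132 in untreated GAP1-AID and between 1.00 and 1.10 in the untreated groups of the other 4 lines. With auxin for 8 h it was 1.82 ± 0.0959 in GAP1-AID, and its highest value of 1.89 was under the lowest untreated value of 1.99. The groups were also apart in AID-TPR, at 1.10 to 1.25 with auxin and 1.07 to 1.09 without, the nearest values being 1.0999 and 1.0940. They were apart in DLD-1, at 0.854 to 0.905 under the auxin label and 0.921 to 1.10 under the untreated label. In AID-NXF1, AID-GANP and GAP1-AID at 2 h the groups overlapped. The share of other gene pairs whose ratios separate in this way was not computed. The ratio of RN7SK to RN7SL1 separated replicates rather than treatments in GAP1-AID, where it ran from 1.11 to 2.05 in the untreated libraries and replicate 3 was lowest in all 3 groups.

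**Figure D3:**
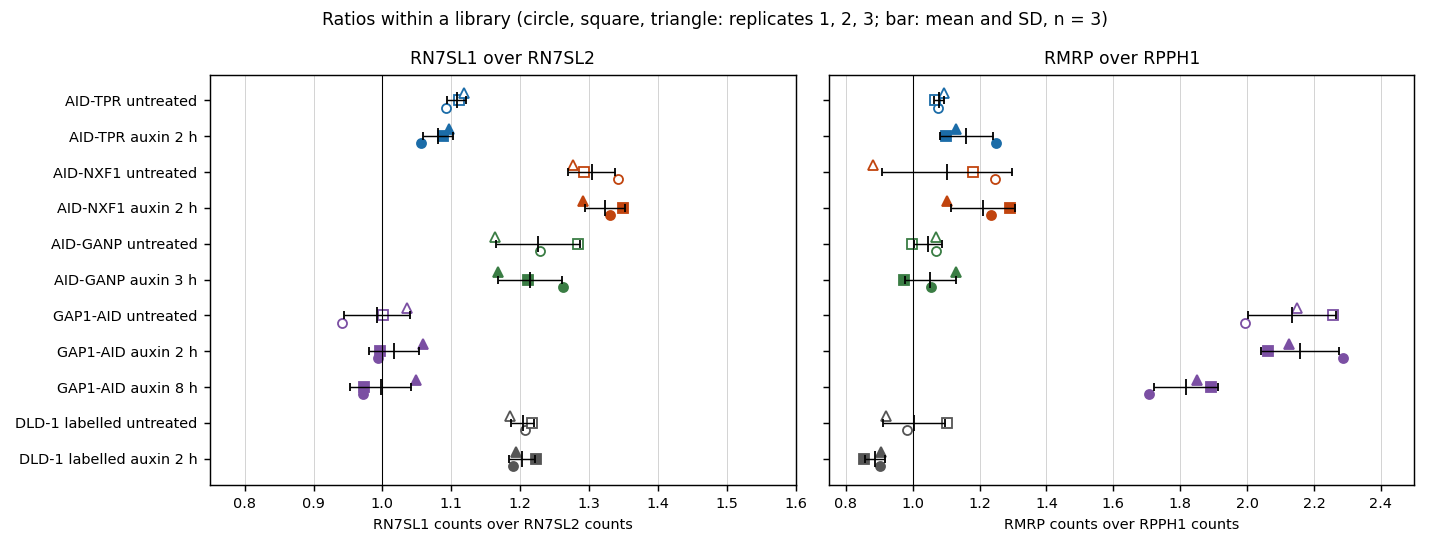
Ratio of RN7SL1 to RN7SL2 counts (left) and of RMRP to RPPH1 counts (right) in each library, by group, with the mean and SD of 3 replicates. RN7SL1 over RN7SL2 is near 1 in GAP1-AID and 1.304 to 1.324 (group means) in AID-NXF1, and RMRP over RPPH1 is near 2 only in GAP1-AID.

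Loss of NXF1 for 2 h was followed by small increases. RN7SK was at 10091, 10874 and 10716 CPM with auxin and at 8266, 8964 and 8440 without, and the groups did not overlap. Its log2 fold change in edgeR's quasi-likelihood test was 0.36 ± 0.0608 (SE, n = 3 and 3), or 1.29-fold, with a Benjamini-Hochberg adjusted p of 0.00141 over 17812 genes. RN7SL1 was at 8616, 8096 and 9006 CPM with auxin and 7595, 6863 and 7788 without, again with no overlap, a log2 change of 0.27 ± 0.0657 (edgeR adjusted p = 0.0135). RN7SL2 rose with it, from 5658, 5311 and 6097 CPM to 6477, 6001 and 6970, a log2 change of 0.25 ± 0.0676 (edgeR adjusted p = 0.0231), although the groups overlapped. RMRP (0.27 ± 0.0905, adjusted p = 0.0509) and RPPH1 (0.13 ± 0.0663, adjusted p = 0.196) did not pass by the same edgeR test.

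A gene was called where its adjusted p was under 0.05 and its fold change at least 1.3 or at most 0.7. By that rule no member was called in AID-NXF1, where 8.16% of tested genes were. By adjusted p alone 3 of 5 members passed against 21.5% of genes, and 2 of 5 had groups without overlap in CPM against 37.5% of genes. Without auxin replicate 1 or without untreated replicate 2, RN7SK was called, at a log2 change of 0.38 and 0.40, and neither 7SL gene passed. RN7SL2 also did not pass without untreated replicate 1 (0.25), and RMRP passed without auxin replicate 3 (0.34) or untreated replicate 1 (0.36). With the replicate number as a block, all 5 members passed by adjusted p, against 39% of genes, and none was called. The other genes of these libraries moved mostly down, with 1057 called lower and 396 higher. The part of that shift in the shares of these RNAs was not tested, and with library totals alone in place of the TMM scaling the changes were 0.07 to 0.30 and 2 of 5 passed, RN7SL2 being at an adjusted p of 0.0575 by edgeR. In one fit over all 33 libraries RN7SK was the 1 member that passed.

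Loss of GANP for 3 h gave changes of similar size but wider spread. RPPH1 was at 6835, 7194 and 8373 CPM with auxin and 5815, 6179 and 6909 without, overlapping groups, with a log2 change of 0.35 ± 0.106 (edgeR adjusted p = 0.0299). RN7SK was at 11196, 11506 and 12933 CPM with auxin and 10292, 10476 and 10524 without, groups that did not overlap, with a log2 change of 0.30 ± 0.0846 (edgeR adjusted p = 0.0245). RMRP had a change of 0.37 ± 0.131, RN7SL1 of 0.26 ± 0.140 and RN7SL2 of 0.27 ± 0.165, none past the test (edgeR adjusted p of 0.0563, 0.194 and 0.238).

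Auxin replicate 3 was the highest library of its group for all 5 RNAs, with 15229 CPM of RN7SL1 against 10435 and 11621 in the other two, and untreated replicate 3 was the highest of the untreated. Without auxin replicate 3 the changes were between 0.05 for RN7SL2 and 0.25 for RPPH1, and no member passed. Without untreated replicate 1 or 2 no member passed either. RPPH1 was called without auxin replicate 1 (0.42), and RPPH1 and RMRP were called without auxin replicate 2 (0.39 and 0.46) or untreated replicate 3 (0.45 and 0.48). No member was called in AID-GANP, against 15.5% of genes, 2 of 5 passed by adjusted p against 28.9%, and 1 of 5 had groups without overlap against 42.2%. With the replicate number as a block all 5 passed by adjusted p, against 52.6% of genes. Library totals alone moved the median log2 change of all genes from 0.01 to −0.09 and the members to between 0.15 and 0.26, with no member passing. Called genes again lay mostly below their controls, 2052 lower and 708 higher.

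**Figure D4:**
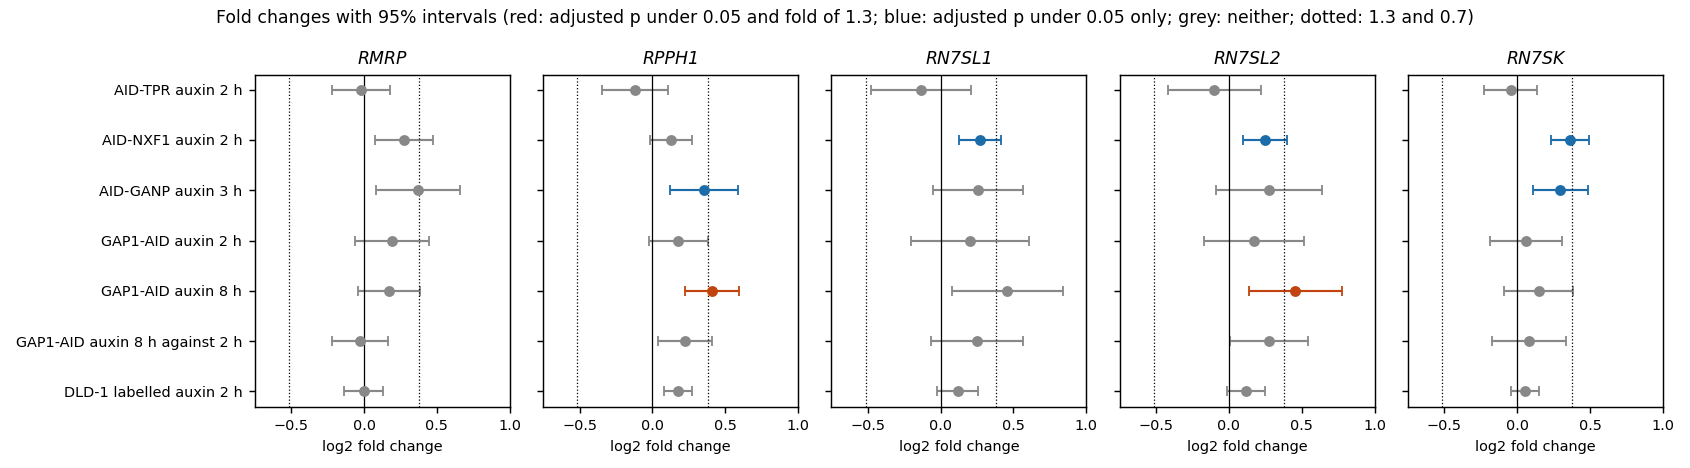
Log2 fold change of each RNA (x axes) with its 95% interval in 7 comparisons (y axis), from edgeR on 3 against 3 libraries. The 2 red points, RPPH1 and RN7SL2 in GAP1-AID at 8 h, passed both thresholds, and the 5 blue points in AID-NXF1 and AID-GANP passed by adjusted p alone.

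Loss of TPR for 2 h gave no detectable change of any member in the replicates compared, which leave out those labelled old. RN7SK was at 5937, 6305 and 6388 CPM with auxin and 5911, 6653 and 6978 without, a log2 change of −0.04 with a 95% interval of −0.23 to 0.14. RN7SL1 was at 7142, 9167 and 9239 CPM with auxin and 7413, 11042 and 10039 without, and its change of −0.13 had an interval of −0.48 to 0.21. The groups overlapped for all 5 RNAs, whose changes lay between −0.13 and −0.02 (edgeR adjusted p of 0.746 to 0.966). None was called or passed, against 0.511% of genes called, 0.662% past adjusted p alone and 15% with groups without overlap. The intervals of RMRP (−0.22 to 0.18), RPPH1 (−0.34 to 0.10) and RN7SK exclude a 1.3-fold rise, as do those of RN7SL1 and RN7SL2 (−0.42 to 0.22). Replicate 1 was low for both 7SL genes with and without auxin, and leaving out its untreated library moved the change of RN7SL1 to −0.30.

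In GAP1-AID members were called at 8 h and not at 2 h, and RPPH1 had the narrowest error. It was at 2885, 3106 and 3333 CPM untreated, 3465, 3456 and 3395 after 2 h and 4281, 3758 and 3992 after 8 h, so that each group lay wholly above the one before. At 8 h its log2 change was 0.41 ± 0.0842, or 1.33-fold, and it was called (edgeR adjusted p = 0.00574). RN7SL2 was also called at 8 h, with 7215, 6335 and 8379 CPM against 4419, 5347 and 6697 untreated, a log2 change of 0.45 ± 0.144 (edgeR adjusted p = 0.0395), although these groups overlapped. RN7SL1 had the same size of change, 0.46 ± 0.172, and missed the threshold (edgeR adjusted p = 0.0741). RMRP (0.17 ± 0.0962) and RN7SK (0.15 ± 0.106) did not pass, with edgeR adjusted p of 0.222 and 0.342.

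At 8 h 2 of 5 members were called against 14.9% of genes and the same 2 passed by adjusted p against 26.7%, while groups without overlap were found for 1 of 5 against 42.2%. Untreated replicate 1 was low, with 4161 CPM of RN7SL1 and 5754 of RMRP, and without it no member was called, RPPH1 being at 0.36 and RN7SL2 at 0.32. No member was called without the 8 h replicate 1 either. RPPH1 alone was called without 8 h replicate 3 (0.42) or untreated replicate 2 (0.42), and RN7SL1 joined both without untreated replicate 3 (0.64). Library totals alone also left no member called. With the replicate number as a block all 5 passed by adjusted p, against 48.2% of genes, and 3 of 5 were called, against 17.8%, RN7SL1 being the third.

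At 2 h no GAP1-AID member was called or passed, with changes of 0.06 to 0.20, against 0.589% of genes called and 0.595% past adjusted p. RPPH1 alone had groups without overlap, against 12.4% of genes. With the block 3 of 5 passed by adjusted p at 2 h, RPPH1, RN7SL1 and RN7SL2, against 8.1% of genes. Between 2 h and 8 h no member was called or passed, against 8.8% called and 15.2% past adjusted p. RPPH1 differed by 0.23 ± 0.0844 (edgeR adjusted p = 0.0982) and RN7SL2 by 0.28 ± 0.121 (edgeR adjusted p = 0.155). RPPH1 was again the 1 member without overlap, against 34.3% of genes, and with the block the same 3 RNAs passed, against 37.2%. Without 2 h replicate 3, RN7SL2 was called (0.38). The untreated libraries are shared by both times, so the 2 changes are not independent.

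In DLD-1, which has no tagged protein, RPPH1 was at 6138, 6550 and 6056 CPM in the libraries labelled auxin and at 5513, 5517 and 5689 in those labelled untreated. The groups did not overlap, but the log2 change of 0.17 ± 0.0437 did not pass (edgeR adjusted p = 0.657). The other 4 RNAs overlapped, with changes of −0.00 for RMRP, 0.05 for RN7SK and 0.12 for RN7SL1 and RN7SL2. Without a replicate block no member was called or passed, against 0.0561% of genes called and 0.0786% past adjusted p. Groups without overlap were found for 1 of 5, against 7.71%. The interval of RN7SK, −0.05 to 0.15, excludes the 0.36 seen in AID-NXF1.

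Whether auxin acted differently between lines was tested as the interaction of line and auxin, in 7 pairs of comparisons and 35 member tests. Without a replicate block 1 of the 35 passed, RN7SK for AID-NXF1 against DLD-1, where the 2 log2 changes differed by 0.30 ± 0.0674 (edgeR adjusted p = 0.00796), with 1 of 5 members against 9.71% of genes. This difference kept an adjusted p under 0.05 without any 1 of the 12 libraries, but not in one fit over all 33 libraries. The DLD-1 labels are in doubt, and with them exchanged the DLD-1 change of RN7SK, 0.05 as labelled, would add to the difference in place of reducing it. Against DLD-1 no member passed for AID-TPR, where 0.825% of genes did, for AID-GANP at 3 h, where 20.1% did, or for GAP1-AID at 2 h, where 0.893% did. With the replicate number as a block, RPPH1, RN7SL1 and RN7SL2 passed for AID-TPR against DLD-1, against 7.53% of genes. All but RPPH1 passed for AID-NXF1, against 23.2%, RMRP, RPPH1 and RN7SK passed for AID-GANP, against 40%, and none passed for GAP1-AID. Without the block RPPH1, RN7SL1 and RN7SL2 changed by −0.12, −0.13 and −0.10 in AID-TPR and by 0.17, 0.12 and 0.12 in DLD-1 as labelled. With the DLD-1 labels exchanged, both lines would have changes below 0 for these RNAs, and that difference was not tested. The numbers paired the libraries of the tagged lines, but in DLD-1 only numbers 1 and 3 (correlations of 0.661 and 0.543) and not number 2 (0.0627).

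Between tagged lines no member passed without the block. RN7SK differed by −0.40 ± 0.105 between AID-TPR and AID-NXF1 (edgeR adjusted p = 0.0649), against 2.28% of genes passing. RPPH1 differed by −0.47 ± 0.160 and RN7SK by −0.34 ± 0.120 between AID-TPR and AID-GANP (edgeR adjusted p of 0.116 and 0.135), against 5.77% of genes. Between AID-GANP at 3 h and AID-NXF1 at 2 h, whose times differ, the differences lay between −0.03 for RN7SK and 0.27 for RPPH1, against 2.62% of genes passing. With the replicate number as a block, the auxin changes of all 5 members differed between AID-TPR and AID-NXF1, against 13.3% of genes in either direction. They also differed for all 5 between AID-TPR and AID-GANP, against 22.1%. Each of these changes, not the level of the RNA, was lower in AID-TPR. Between AID-GANP and AID-NXF1 the change of RPPH1 alone differed, against 15.1%.

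The genes of proteins that bind these RNAs come from lists. Of 8 SRP proteins and receptor subunits none was called after loss of TPR, NXF1 or GANP, and at 8 h in GAP1-AID SRPRB, the membrane subunit of the SRP receptor, rose by 0.53 ± 0.0799 (edgeR adjusted p = 0.001). Of 11 RNase P and MRP proteins, RPP38 and RPP14 fell with loss of NXF1, by 0.66 and 0.53 on the log2 scale (edgeR adjusted p of 6.88e-05 and 3.64e-05). RPP38, POP7 and RPP25L fell with loss of GANP, by 0.72, 0.54 and 0.52 (edgeR adjusted p of 0.00026, 0.000559 and 0.00128), and over the alternatives 1 to 5 genes of the list were called lower. RPP14 rose at 8 h in GAP1-AID by 0.68 (edgeR adjusted p = 0.00028). The list medians were −0.11 in AID-NXF1 and −0.13 in AID-GANP, beside 0.01 for all genes in both. Called lower were 5.93% of all genes in AID-NXF1 and 11.5% in AID-GANP, and called higher 8.26% in GAP1-AID at 8 h.

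Of 7 genes of the 7SK particle and P-TEFb, MEPCE, the enzyme that caps 7SK, fell by 0.53 ± 0.0587 after loss of NXF1 (edgeR adjusted p = 7.92e-05), where RN7SK rose. It was the 1 gene of the list called there, where 5.93% of all genes were called lower, and under at least 1 alternative none was called. After loss of GANP, HEXIM1, the P-TEFb inhibitor, fell by 0.95 ± 0.152, MEPCE by 0.83 ± 0.0721 and CCNT1, the cyclin T1 of P-TEFb, by 0.66 ± 0.0822 (edgeR adjusted p of 0.00101, 1.86e-05 and 0.000201). That made 3 of 7 called, all lower, where 11.5% of all genes were called lower, with a list median of −0.26 beside 0.01 for all genes, and 3 were called lower under every alternative. None of the 7 was called in AID-TPR, DLD-1 or GAP1-AID.

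The transcription machinery had few calls. As background, 11.5% of all genes were called lower and 3.97% higher in AID-GANP, and 8.26% higher and 6.62% lower in GAP1-AID at 8 h. Between 8 h and 2 h 8.8% were called in either direction. Of 13 Pol III subunits, CRCP fell by 0.64 after loss of GANP (edgeR adjusted p = 0.000324), and at 8 h in GAP1-AID CRCP rose by 1.13 and POLR1D, a subunit shared with Pol I, by 0.45 (edgeR adjusted p of 3.79e-05 and 0.00773). None was called in AID-NXF1 or AID-TPR. Of 13 initiation and control factors, SNAPC5 rose by 0.39 after loss of GANP (edgeR adjusted p = 0.00427), though over the alternatives 0 to 2 genes of this list were called higher. At 8 h in GAP1-AID, BRF2, the initiation factor used at upstream Pol III promoters, rose by 0.84 and SNAPC1, a subunit of the complex that binds those promoters, by 0.42, while POU2F1, which binds the octamer, fell by 0.63 (edgeR adjusted p of 0.00054, 0.00653 and 0.00179). Between 8 h and 2 h, CRCP rose by 0.88, SRPRB by 0.39 and RPP14 by 0.53, and POU2F1 fell by 0.63 (edgeR adjusted p of 0.000134, 0.00701, 0.00179 and 0.00681), of which the SRPRB call was lost under at least 1 alternative.

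Other short RNAs were read in the same libraries. Of 7 tested genes of other Pol III RNAs, RNU6-8, a U6 gene, and RNY1, a Y RNA, rose after loss of NXF1 by 0.76 and 0.69 (edgeR adjusted p of 0.00765 and 0.0015), and RNY1 rose after loss of GANP by 0.49 (edgeR adjusted p = 0.00179). In AID-NXF1 RNU6-8 averaged 1.67 CPM untreated and 2.72 with auxin, and RNY1 8.86 and 13.8, so both were counted at low levels. RNY1 fell by 0.76 between 2 h and 8 h in GAP1-AID (edgeR adjusted p = 0.004). A list of Pol II small nuclear RNAs, which also held TERC and SCARNA genes, had 44 tested genes. Of these, 43 had changes above 0 in AID-NXF1, with a median of 0.30 beside 0.01 for all genes. Called were 5, all higher, among them the telomerase RNA TERC at 0.41 ± 0.0607 (edgeR adjusted p = 0.000584). TERC averaged 115 CPM untreated, but the called RNVU1-1, RNVU1-3 and RNU5F-1 only 1.38, 2.20 and 4.05. Of all genes 2.22% were called higher and 5.93% lower there, and over the alternatives 1 to 11 of the 44 were called higher. In AID-GANP 9 of 44 were called higher and 1 lower, with a median of 0.17, and RNU4-2, a U4 gene, was at 0.71 and SCARNA5 at 0.78 (edgeR adjusted p of 0.0109 and 0.0258). Of all genes 3.97% were called higher in AID-GANP, and over the alternatives 4 to 11 of the 44 were called higher and 0 to 4 lower. In GAP1-AID at 8 h 17 of 44 were called lower and none higher, with a median of −0.25, among them the variant U1 genes RNVU1-6 at −1.70 and RNVU1-19 at −1.66 (edgeR adjusted p of 0.00235 and 3.69e-05). RNVU1-6 averaged 15.8 CPM untreated and 4.78 at 8 h, and RNVU1-19 8.09 and 2.51, so both were counted at low levels. Of all genes 6.62% were called lower and 8.26% higher at 8 h, and over the alternatives 11 to 19 of the 44 were called lower and 0 to 1 higher. At 8 h, 2 of 5 members, RPPH1 and RN7SL2, were called higher in the libraries in which these Pol II RNAs were called lower. The 7 tested genes of other Pol III RNAs had no calls at 8 h, with 3 above 0 and a median of −0.17. Among these, the 7SL copy RN7SL3 was at −0.17. DLD-1 had no calls among the other Pol III RNAs or the Pol II small nuclear RNAs, with medians of 0.14 and 0.11. As labelled, 39 of the 44 Pol II RNAs had changes above 0 in DLD-1 too.

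Pseudogene copies were counted on few reads. Of 11 tested RN7SL pseudogenes, RN7SL767P and RN7SL4P rose in AID-NXF1, by 2.15 and 0.38, RN7SL381P rose in AID-GANP by 0.75, and RN7SL657P and RN7SL737P fell at 8 h in GAP1-AID by 1.13 and 0.56 (edgeR adjusted p of 0.0247, 0.0203, 0.0486, 0.00548 and 0.0452). RN7SL767P averaged 0.298 CPM with auxin. Of 9 tested RN7SK pseudogenes, RN7SKP255 and RN7SKP203 rose in AID-NXF1, by 1.54 and 1.10 (edgeR adjusted p of 0.0396 and 0.0494). Untreated they averaged 1.38 and 1.45 CPM, and with auxin 3.79 ± 3.00 and 2.94 ± 1.88 CPM (SD, n = 3), a wide spread. All 9 were above 0 in AID-NXF1, AID-GANP and AID-TPR, against 6 in DLD-1 as labelled, and 3 at 2 h and 2 at 8 h in GAP1-AID. Reads of a near copy can be split between gene and pseudogene, so these values are uncertain, and over the alternatives the counts called higher in AID-NXF1 ran from 0 to 4 for RN7SL and 0 to 6 for RN7SK pseudogenes.

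**Figure D5:**
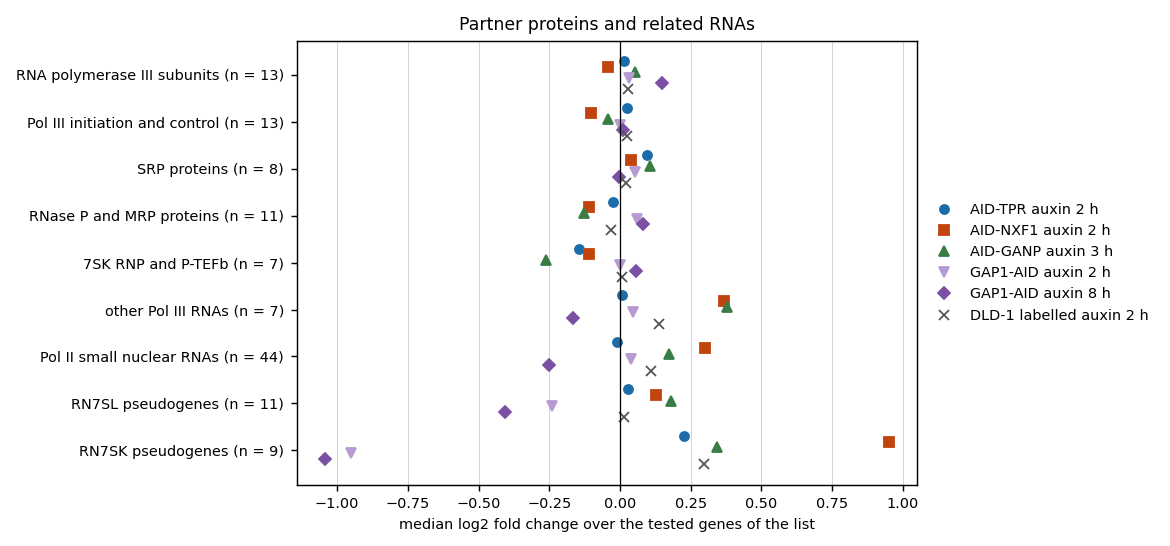
Median log2 fold change over the tested genes of each list (y axis, with the number of tested genes) in 6 comparisons of auxin with untreated. The 44 tested genes listed as Pol II small nuclear RNAs, TERC and SCARNA genes included, have medians of 0.30 in AID-NXF1, 0.17 in AID-GANP and −0.25 in GAP1-AID at 8 h. The 7SK particle genes have −0.26 in AID-GANP.

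Across the 33 libraries the closest gene to RN7SL1 was RN7SL2, with Pearson's r of 0.96 on log2(CPM + 0.5). As a description, the closest to RPPH1 were MRPL23 at 0.95, TBC1D9 at 0.94 and SURF4 at 0.94, those to RMRP were RPS21 at 0.80, GPX1 at 0.78 and NOP53 at 0.78, and those to RN7SK included TTC17 at 0.91 and TGFBI at 0.90. After its partner gene, RN7SL1 was closest to FER1L6 at 0.89 and EPS8L1 at 0.88, and RN7SL2 to ENSG00000264785 at 0.90 and ALDH3A1 at 0.87. RPPH1 and RN7SL1 had r = 0.73, RMRP and RPPH1 0.05, and RMRP and RN7SL1 −0.27. The 33 points share lines and counting, so these values largely follow the level differences between 5 lines.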

How the data were processed

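Total RNA was depleted of rRNA (Ribo-Zero Gold) after column extraction, which keeps the shortest RNAs poorly, and sequenced as TruSeq total RNA libraries. The authors aligned reads to GRCh38 with STAR (2.6.1c in the submitters' processing notes) and deposited raw counts per Ensembl gene from featureCounts (1.5.2), unnormalized, 1 file per sample. The methods of the study name earlier versions of both tools, and which versions made these counts is not known. Strand, overlap and multiple-mapping settings are not given in the sources used here.

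CPM was computed on the total of each library (26858492 to 47492200 counts). Genes with CPM above 1 in at least 4 of the 60 libraries without actinomycin D (17812 genes) were tested with edgeR 4.0.16 (TMM, quasi-likelihood, 3 against 3 libraries per comparison, Benjamini-Hochberg), SE being the change over the root of F, with DESeq2 1.42.0 as an alternative. Interactions used 12 libraries. Calls needed adjusted p under 0.05 and fold of 1.3 or 0.7. The pipeline was tested on simulated counts. Replicates were labelled by number and described in the study as independent biological replicates, and differed by more than sampling noise (chi-square per degree of freedom of 4.07 to 31.6). Deviations from group means of same-numbered libraries correlated above 0.1 for all 3 numbers in every comparison except DLD-1 (lowest 0.235). In DLD-1 number 2 was at 0.0627, and numbers 1 and 3 were at 0.661 and 0.543. Block values therefore stand beside changed results. Named were the 5 members, the called genes of each list (at most 4 per list and comparison), the 3 most alike genes per member with mean CPM of at least 5, tagged genes and CYP1A1. Members and lists were chosen with earlier results of these data known. Coordinates and sequences are GRCh38 with GENCODE 44, which matched 56948 of 58051 identifiers, and promoters for the background are from RefSeq. The ratios between members were chosen for display after values were seen. A gene alike to RN7SK and some sequence of the 7SL genes are not reported here.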

Additional observations from a re-analysis of the deposited data

Results flagged for a closer look

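The change of RN7SK with auxin differed between AID-NXF1 and DLD-1 by 0.3048 on the log2 scale in the test of the difference itself (edgeR, 12 libraries, adjusted p = 0.00796). RN7SK was higher in all 3 auxin libraries than in all 3 untreated libraries of AID-NXF1, and the DLD-1 groups overlapped. The adjusted p was 0.154 in one fit over 33 libraries.

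In the 33 libraries outside the comparisons, where the other 4 members were at 0 counts, RN7SL2 had at least 217492 counts in each library.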

How the results depend on the processing

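Of 133 alternatives for counts of members called or differing, other than leaving out 1 library, 112 stayed within 1.5 times the reported count and 21 moved. For the fitted log2 changes of members, 281 of these alternatives kept direction and side of the threshold, 35 newly passed, 7 no longer passed and 1 reversed. The causes were not tested. Called members in AID-GANP were 1 by DESeq2 and 2 in one fit over 33 libraries, and in GAP1-AID at 8 h 0 with library sizes alone. Members whose change differed between AID-TPR and AID-NXF1 were 1 with library sizes alone, TMM on protein-coding genes or DESeq2 and 4 with no filter. Between AID-TPR and AID-GANP they were 1 by DESeq2 or in one fit and 5 with no filter. Against DLD-1 they were 2 with no filter for AID-TPR, AID-NXF1 and AID-GANP, 0 in one fit for AID-NXF1 and 1 by DESeq2 for AID-GANP. The shares of all genes passing under these settings are not given here, so these counts are not read as results about the members.

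With the replicate block, members differed between lines in 3 cases for AID-TPR against DLD-1 (7.53% of genes), 4 for AID-NXF1 against DLD-1 (23.2%), 3 for AID-GANP against DLD-1 (40%), 1 for AID-GANP against AID-NXF1, and 5 each for AID-TPR against AID-NXF1 and AID-GANP. In DLD-1, where replicate number 2 did not pair, RPPH1, RN7SL1 and RN7SL2 passed with the block and RMRP reversed to 0.0003. The share of all genes that passed with the block in DLD-1 is not given here, so that count is not read as a result about these RNAs. The block changed no other count of called members by over 1.5 times.

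Leaving out 1 library at a time, called members ranged from 0 to 1 in AID-NXF1, 0 to 2 in AID-GANP, 0 to 3 in GAP1-AID at 8 h and 0 to 1 between 8 h and 2 h. Differing members ranged from 1 to 2 for AID-NXF1 against DLD-1, 0 to 1 for AID-GANP against DLD-1, 0 to 1 for AID-TPR against AID-NXF1 and 0 to 2 for AID-TPR against AID-GANP. Shares of all genes with a library left out are not given either. Signs of some member changes turned. In AID-TPR RMRP ranged from −0.1268 to 0.0586, RN7SL2 from −0.261 to 0.0314 and RN7SK from −0.1307 to 0.0119. RMRP ranged from −0.0575 to 0.0719 in DLD-1 and from −0.0537 to 0.031 between 8 h and 2 h, where RN7SK ranged from −0.0011 to 0.1767. Signs of differences between lines, none of them past the test, turned as well: without AID-GANP auxin replicate 3 the differences above 0 went from 5 to 3 against DLD-1 and from 4 to 1 against AID-NXF1, and without GAP1-AID untreated replicate 1 from 5 to 2 against DLD-1. Counting error was at most 0.351% for members, whose lowest count was 81394, and each group had 3 libraries.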
